A study of Mus musculus with 2 samples.

Results

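Natural killer (NK) cells and group 1 innate lymphocytes of AT3 tumors were described in single-cell RNA libraries of tumor leukocytes of mice with floxed Pgd, without Cre (Pgd fl/fl, WT) or with it (Pgd fl/fl LysM-Cre, KO). Members were barcodes with 500 to 7500 detected genes and at most 15% mitochondrial UMIs (unique molecular identifiers, each marking 1 captured RNA molecule) that held at least 2 UMIs of Ncr1 and Klrb1c together, at most 1 UMI of Cd3d, Cd3e and Cd3g together, and fewer than 10 UMIs of C1qa, C1qb and C1qc together. This rule took 36 of 3565 kept cells in WT and 54 of 2798 in KO, which is 90 of 6363 kept cells out of 6742 barcodes. Since the rule read Ncr1, Klrb1c, the Cd3 genes and the C1q genes, their levels in the members are a description and no finding.

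Each library came from tumors of 10 female mice, 6 to 12 weeks old, pooled on day 30 after injection of 500000 AT3 cells, a mouse mammary tumor line. All mice carried floxed alleles of Pgd, which encodes 6-phosphogluconate dehydrogenase of the pentose phosphate pathway. The KO mice also carried Cre knocked into Lyz2, a gene of macrophages, monocytes and neutrophils, so NK cells are not among the cells in which that promoter is known to be strong. Suspensions were tagged with oligonucleotides, sorted and loaded together. Each genotype had 1 library and no replicate, no test between genotypes was made, and the genotype and the preparation cannot be told apart. Levels are the UMIs of a gene summed over cells and scaled to a common total (CPM), genotypes are compared by the log2 ratio of KO over WT, and all intervals are exact 95% intervals that cover counting error only. Where a pair of values is given for a gene, WT stands first. Intervals treat UMIs as independent and are too narrow for genes whose UMIs sit in few cells.

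NK cells kill stressed, infected or transformed cells without rearranged antigen receptors. Their activity is set by a balance of activating receptors such as NKp46 (Ncr1) and NKG2D (Klrk1) against inhibitory receptors, among them the Ly49 (Klra) family that reads MHC class I in the mouse. Conventional NK cells circulate, depend on Eomes and carry perforin and granzymes, whereas tissue-resident group 1 cells (ILC1s and their relatives) keep integrins such as CD49a (Itga1) and CD103 (Itgae), and in mouse tumors and glands often express granzyme C.

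Pgd itself was detected in few members of either library. The members held 10 Pgd UMIs in 8 cells of WT (42.8 CPM) and 15 UMIs in 12 cells of KO (36.7 CPM), a log2 ratio of −0.22 (−1.47 to 1.09). In macrophages, the cells with at least 10 C1q UMIs, Pgd was at 108 CPM in WT and 27.2 CPM in KO, a log2 ratio of −1.99 (−2.23 to −1.76). The interval of the members rests on 10 and 15 UMIs, covers counting error only and holds losses of more than 2-fold. Whether Pgd was deleted in members was not tested. Lyz2, which the Cre insertion interrupts, was at 3181 CPM in WT macrophages and 12.4 CPM in those of KO, and the members held 8 and 2 Lyz2 UMIs.

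Members made up 1.01% of kept cells in WT (Clopper-Pearson interval 0.708% to 1.40%) and 1.93% in KO (1.45% to 2.51%). B cells, defined by their own markers, were 15.2% and 1.32% of the same libraries, and with them left out of the total the shares were 1.19% (0.835% to 1.64%) and 1.96% (1.47% to 2.54%). The intervals without B cells overlap. With no C1q UMI allowed in a member the shares of kept cells were 0.870% and 1.25%, and on cells thinned to 2000 UMIs they were 0.758% and 1.21%. The labels name a gate on CD45 and a gate on CD11b, a protein that some NK cells carry. The study itself describes a sort of live CD45+ cells. The kept cells included 762 and 521 CD8 T cells and 541 and 37 B cells. The part of the gate in these shares was not tested. Members had a median of 5512 UMIs and 1829.5 genes in WT and 4976.5 UMIs and 1630 genes in KO, with 233595 and 409035 UMIs in all. The libraries shared 0 barcodes.

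The cells just inside and just outside the limit on NK UMIs differed in Gzma. At exactly 2 NK UMIs there were 4 and 6 members with Gzma at 5235 and 4857 CPM, close to the 4993 and 4267 CPM of the 32 and 48 members with more. The 6 and 10 cells with 1 NK UMI that otherwise met the rule had Gzma at 107 and 1473 CPM and Cd74, the MHC class II chaperone, at 15607 and 3019 CPM. These cells had Nkg7 at 353 and 1344 CPM and Klrd1 at 215 and 736 CPM. Members with 3 or more NK UMIs had Nkg7 at 2008 and 1410 CPM and Klrd1 at 959 and 734 CPM. In KO the cells left out were thus close to the members in both genes. With at least 2 NK UMIs, 4 and 5 members had 1 Cd3 UMI and no cell had 2 or 3, whereas 5 cells of each library with NK UMIs were left out for C1q and had Apoe at 8623 and 15752 CPM. The members with 1 Cd3 UMI had Gzma at 672 and 1468 CPM, against 5510 and 4734 CPM in those with none.

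The label of the cells was set beside other lymphocyte markers. Klrd1 (CD94) was at 916 and 726 CPM, Nkg7 at 1935 and 1381 CPM, and the signalling adaptors Tyrobp (DAP12) and Fcer1g at 2329 and 2389 CPM in WT and 1682 and 1765 CPM in KO. No single one of these genes is particular to the members. Klrd1 was detected in 55.4% and 67.4% and Nkg7 in 91.6% and 98.5% of CD8 T cells. Tyrobp was detected in 99.2% of macrophages of both libraries, and Fcer1g in 100% and 98.8%. All 12 genes of the NK identity list that the rule did not read were detected in both libraries. The transcription factors of the lineage, Eomes and Tbx21 (T-bet), were at 133 and 77.1 CPM in WT and 117 and 70.9 CPM in KO. T cell genes were close to absent, with 7 and 8 Trac UMIs, 0 Cd4 UMIs and 0 and 1 Cd8a UMIs. Trbc1 and Trbc2, constant segments of the T cell receptor beta chain that NK cells are known to transcribe without rearrangement, were present at 462 and 424 CPM in WT and 345 and 149 CPM in KO. Of the 8 genes of the ILC3 list, 5 were at 0 UMIs in both libraries, among them Il23r, Il17a, Il22 and Il1r1. The other genes of that list held 23 and 40 UMIs together. The list was thus at 98.5 and 97.8 CPM, against 80.1 and 59.3 CPM in CD8 T cells.

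Compared with all other kept cells, the genes with the highest ratio in both libraries were receptors and lytic proteins of NK cells. Since the members were chosen by 2 NK receptors, these ratios are a description. Klra8 and Klra4 led the list. Among Ly49 genes, Klra8 was 127 and 163 times, Klra4 440 and 83.3 times and Klra9 59.9 and 27.8 times the level in other cells in WT and KO. Klra7 was 15 and 17.5 times higher. Among the lytic genes, Gzmc was at 70.7 and 28.0 times, Gzma at 43.0 and 23.2 times, and Prf1, which encodes perforin, at 24.1 and 18.4 times. The lectin receptor genes Klre1, Klri2, Klrc1 (NKG2A) and Klrd1, the chemokine gene Xcl1, the carbonic anhydrase gene Car2, Nrgn and Cited4 completed the 15, with Xcl1 at 15.2 and 7.81 times. Against CD8 T cells, Tyrobp was 39.7 and 11.6 times and Fcer1g 29.2 and 9.82 times higher, and Klrb1b was 67.7 and 15 times higher. The remaining genes of that second list were Klra4, Klra8, Klra9, Gzmc, Klra7, Klre1, Car2, Gzma, Prf1, Klri2, Nrgn and Cited4.

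T cells that carried NK receptors (at least 2 UMIs of Ncr1 and Klrb1c and at least 2 of Cd3, 38 and 36 cells) shared part of this programme. They had Gzmc at 3304 and 5797 CPM and Klra7 at 341 and 281 CPM, but Gzma at 1547 and 647 CPM against 5017 and 4315 CPM in the members. Klra5 was at 61.7 and 107 CPM in these T cells, and the members held 0 and 1 Klra5 UMIs. Both populations were set apart by rule in Cd3, and no test was made.

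**Figure D1:**
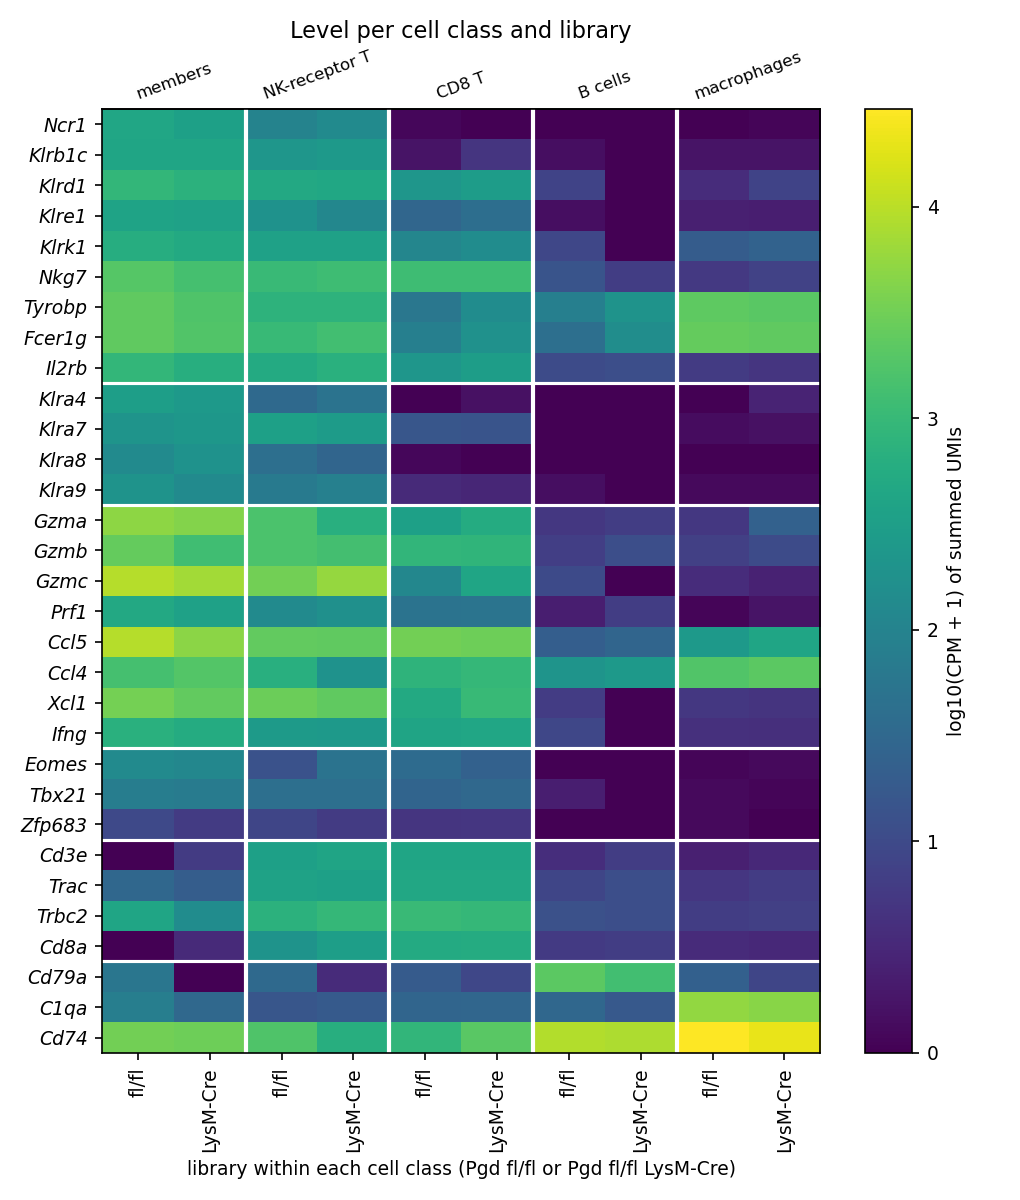
Levels of member genes by class. Colour is log10 of CPM plus 1 for each gene (rows) in each cell class and library (columns, fl/fl for WT and LysM-Cre for KO), with members beside T cells with NK receptors, CD8 T cells, B cells and macrophages. Gzma, at 5017 and 4315 CPM in members, and the Ly49 genes are brighter in the member columns than in the B cell and macrophage columns.

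The upstream sequences of Ncr1, which the rule read, and of the granzyme genes Gzma, Gzmb and Gzmc, whose levels are described next, are shown. They are the 250 bases before the annotated start on GRCm38.p6, from RefSeq, read 5′ to 3′ along the gene. Capitals mark matches to TGTGGT, the core letters of RUNX factors, or AGGAAGT, those of ETS factors, on either strand.
Ncr1 (chr7:4337465-4337714, plus strand): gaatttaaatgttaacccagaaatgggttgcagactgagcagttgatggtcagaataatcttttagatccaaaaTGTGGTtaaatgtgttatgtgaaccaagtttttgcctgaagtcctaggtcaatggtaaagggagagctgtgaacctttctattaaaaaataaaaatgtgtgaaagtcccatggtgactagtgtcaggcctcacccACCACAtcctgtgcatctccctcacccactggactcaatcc
Gzma (chr13:113100982-113101231, minus strand): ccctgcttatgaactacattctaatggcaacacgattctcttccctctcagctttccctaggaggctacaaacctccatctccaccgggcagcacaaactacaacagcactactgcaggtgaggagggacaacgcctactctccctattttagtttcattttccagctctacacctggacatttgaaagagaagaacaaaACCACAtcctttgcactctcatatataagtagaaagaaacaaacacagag
Gzmb (chr14:56262335-56262584, minus strand): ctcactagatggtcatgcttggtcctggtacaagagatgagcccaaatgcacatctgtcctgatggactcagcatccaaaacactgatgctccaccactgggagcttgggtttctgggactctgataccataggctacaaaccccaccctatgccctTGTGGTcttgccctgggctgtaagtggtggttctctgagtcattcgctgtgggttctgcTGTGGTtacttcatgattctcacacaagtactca
Gzmc (chr14:56234658-56234907, minus strand): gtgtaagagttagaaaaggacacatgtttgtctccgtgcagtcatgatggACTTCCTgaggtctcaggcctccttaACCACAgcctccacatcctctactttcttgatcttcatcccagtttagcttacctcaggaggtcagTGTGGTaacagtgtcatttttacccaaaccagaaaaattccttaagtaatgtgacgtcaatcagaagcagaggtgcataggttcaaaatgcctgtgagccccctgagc
The RUNX letters stood 176 and 41 bases before the start in Ncr1, 50 bases in Gzma, 93 and 34 bases in Gzmb, and 174 and 108 bases in Gzmc, which also held the ETS letters 200 bases before its start. Of 32851 promoter windows of this length, 14% held the RUNX letters and 7.69% the ETS letters. Of 11 genes searched, Klra7, Klra4, Klra8 and Eomes held neither of these nor GGTGTGA, the T-box letters, which 3.33% of all windows held and of the 11 genes Xcl1 alone. Klrb1c, Prf1 and Xcl1 held the RUNX letters, and Prf1 and Xcl1 the ETS letters. A match is a description of letters and not a bound site, and no match says only that these letters are not in the window. The Gzmc window lies inside the annotated span of the gene (chr14:56231397-56241647), upstream of a shorter transcript. Gzmb (chr14:56258836-56262334) and Gzmc lie with the other granzyme genes of chromosome 14 within 145 kb, Gzma lies apart (chr13:113093824-113100981), and Ncr1 is at chr7:4337715-4345184.

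Members fell into cells that carried Gzma or Gzmc but hardly ever both. With a limit of 10 UMIs, 50 members had Gzma alone, 20 had Gzmc alone, 1 had both and 19 had neither. The split was seen in each library, with 19 and 9 cells for Gzma and Gzmc alone in WT and 31 and 11 in KO. Ccl5, a chemokine gene of cytotoxic lymphocytes, went with Gzma, since 44 members passed 10 UMIs of both, and 3 members passed it for Gzmc and Ccl5.

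**Figure D2:**
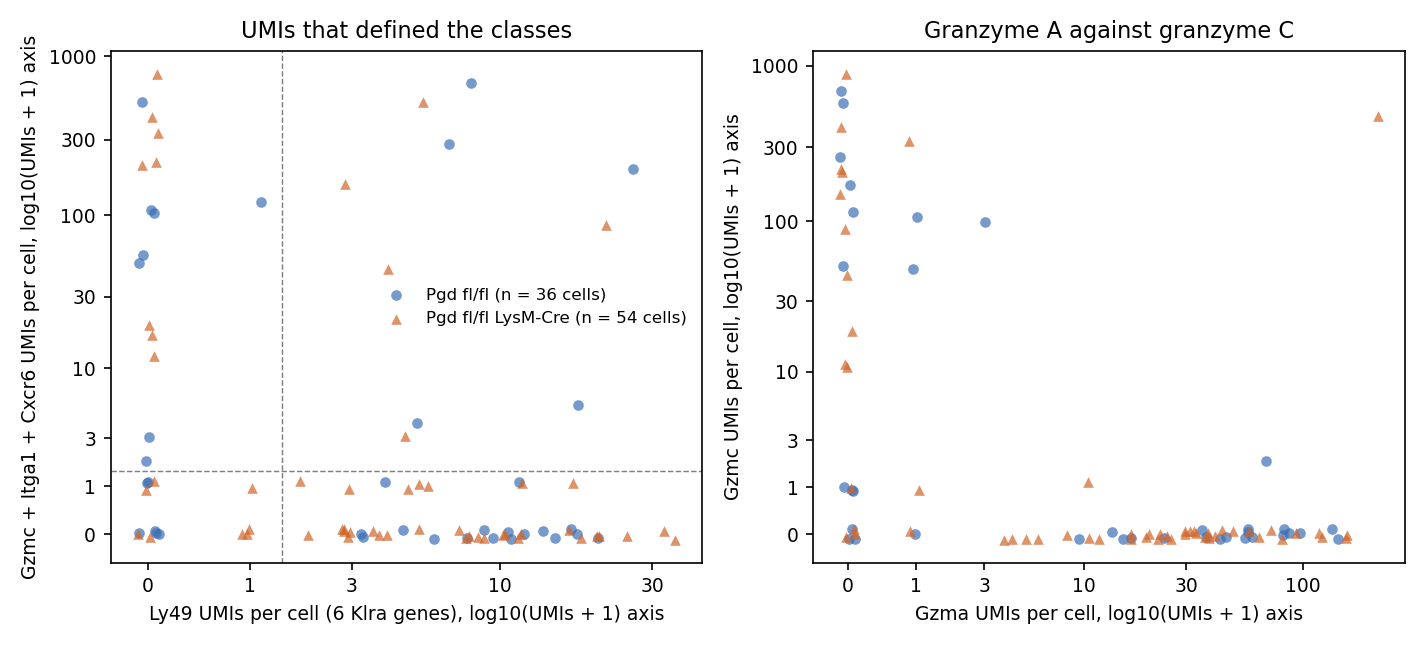
UMIs of each of the 90 members. The left panel plots Ly49 UMIs against UMIs of Gzmc, Itga1 and Cxcr6 together, and the right panel Gzma against Gzmc, with 1 point per cell coloured by library, slightly jittered, on log10 axes of UMIs plus 1; dashed lines mark the class limits. In the right panel, at a limit of 10 UMIs, 50 cells lie along the Gzma axis, 20 along the Gzmc axis and 1 cell passes 10 UMIs on both.

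For a closer description members were divided by their raw UMIs. A Ly49 class had at least 2 UMIs of the Ly49 genes and at most 1 of Gzmc, Itga1 and Cxcr6. A Gzmc class was the reverse. The Ly49 class held 17 members of WT (47.2%, 30.4% to 64.5%) and 33 of KO (61.1%, 46.9% to 74.1%). The Gzmc class held 8 members of each library (22.2%, 10.1% to 39.2%, and 14.8%, 6.62% to 27.1%). A further 5 members of each library had both sets of UMIs, 6 and 8 had neither, and 20 members lay within 1 UMI of a limit. Median depth was 3786 and 3982 UMIs in the Ly49 class and 8448 and 12954 UMIs in the Gzmc class, so the Gzmc class held the deeper cells. The class genes are no finding, and differences between the classes are given without a test because the classes were cut from the same cells.

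Gzma and Ccl5, which the class limits did not use, marked the Ly49 class. Per cell, Gzma ran from 0 to 146 UMIs with a median of 56 in the Ly49 class of WT and from 0 to 156 with a median of 28 in that of KO. In the Gzmc class it ran from 0 to 3 and from 0 to 1, with medians of 0. Only 1 and 2 cells of the Ly49 class had no Gzma UMI, against 5 and 7 of 8 in the Gzmc class. Summed, Gzma was at 12295 and 7086 CPM in the Ly49 class and 78.7 and 9.81 CPM in the Gzmc class.

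Ccl5 was at 16886 and 8496 CPM in the Ly49 class and 835 and 0 CPM in the Gzmc class. The 8 cells of the Gzmc class of KO all had 0 Ccl5 UMIs. Thinned to 2000 UMIs per cell, 16 of 17 and 27 of 31 cells of the Ly49 class (2 shallower KO cells were left out) had a Gzma UMI and 0 of 8 cells did in the Gzmc class of each library, while B cells, which should lack the gene, were at 0.951% and 0%. B cells had median depths of 3362 and 3091 UMIs. Depth was greater in the class without Gzma, and the split was as clear at equal depth.

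Of 9 genes of the circulating NK list that the classes did not use, 8 were higher in the Ly49 class of both libraries, counted with no minimum of UMIs. The exception was Klf2, at 1290 and 1559 CPM in the Ly49 class and 1370 and 314 CPM in the Gzmc class. Of the 8, Klrg1 rested on 5 and 6 UMIs against 1 and 2. The share of all genes higher in 1 class of both libraries was not computed, so the count is a description only. Prf1 was at 744 and 477 CPM in the Ly49 class against 110 and 49.0 CPM in the Gzmc class. Itga2 (CD49b) was at 74.4 and 71.8 CPM and the chymase gene Cma1 at 99.3 and 128 CPM in the Ly49 class, and both were at 0 UMIs in the Gzmc class. Eomes was at 273 and 159 CPM against 15.7 and 29.4 CPM, while Tbx21 was at 62.0 and 82.0 CPM against 78.7 and 78.5 CPM. Eomes thus lay higher in the Ly49 class of both libraries, whereas Tbx21 did not separate the classes. Ccl4 was at 2767 and 2620 CPM against 15.7 and 206 CPM, and Irf8 was at 931 and 1102 CPM against 268 and 255 CPM.

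Of 9 genes of the ILC1 list that the classes did not use, 8 were higher in the Gzmc class of both libraries, again with no minimum. The exception was Zfp683 (Hobit), with 0 and 2 UMIs in the Ly49 class and 0 in the Gzmc class. Of the 8, Cd200r1 rested on 1 and 1 UMIs in the Gzmc class against 0 and 1 in the Ly49 class. As above, the share over all genes was not computed. Prdm1 (Blimp-1), which is also known from residency but was not on that list, had 1 and 16 UMIs in the Ly49 class and 0 in the Gzmc class. Itgae was at 504 and 245 CPM against 24.8 and 35.9 CPM in the Ly49 class, and Xcl1, whose product attracts cross-presenting dendritic cells, was at 5638 and 4650 CPM against 844 and 1548 CPM. Every cell of the Gzmc class had Xcl1, from 15 to 88 UMIs in WT and from 9 to 247 UMIs in KO. In the Ly49 class 6 and 13 cells had none.

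Cd160, an activating receptor gene, was at 299 and 186 CPM against 49.6 and 51.3 CPM, and the death ligand gene Tnfsf10 (TRAIL) at 126 and 118 CPM against 24.8 and 30.8 CPM. Tmem176a was at 268 and 196 CPM against 0 and 10.3 CPM, and Id3 was at 394 and 275 CPM against 0 and 30.8 CPM. Ccl1 led the list of genes higher in the Gzmc class, with 520 and 677 CPM, but its UMIs came from 1 cell and 2 cells. Nrgn, Pkp3, Hspb1, Rgcc, Igflr1 and Ifitm1 were the others of the first 10.

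Klrd1 and Il2rb were found at high levels in both classes. Klrd1 was at 794 and 646 CPM in the Ly49 class and 1197 and 775 CPM in the Gzmc class, Il2rb, a chain of the interleukin-15 receptor, at 806 and 610 CPM and 772 and 657 CPM. Gzmb was at 1563 and 1892 CPM in the Ly49 class and 992 and 265 CPM in the Gzmc class, where 1 WT cell held 45 of 63 UMIs. Ifng, the type 1 effector cytokine gene, was at 434 and 892 CPM in the Ly49 class and 693 and 98.1 CPM in the Gzmc class. Its order between the classes thus turned with the library, while 1 WT cell of the Gzmc class held 22 Ifng UMIs at a median of 2.5.

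**Figure D3:**
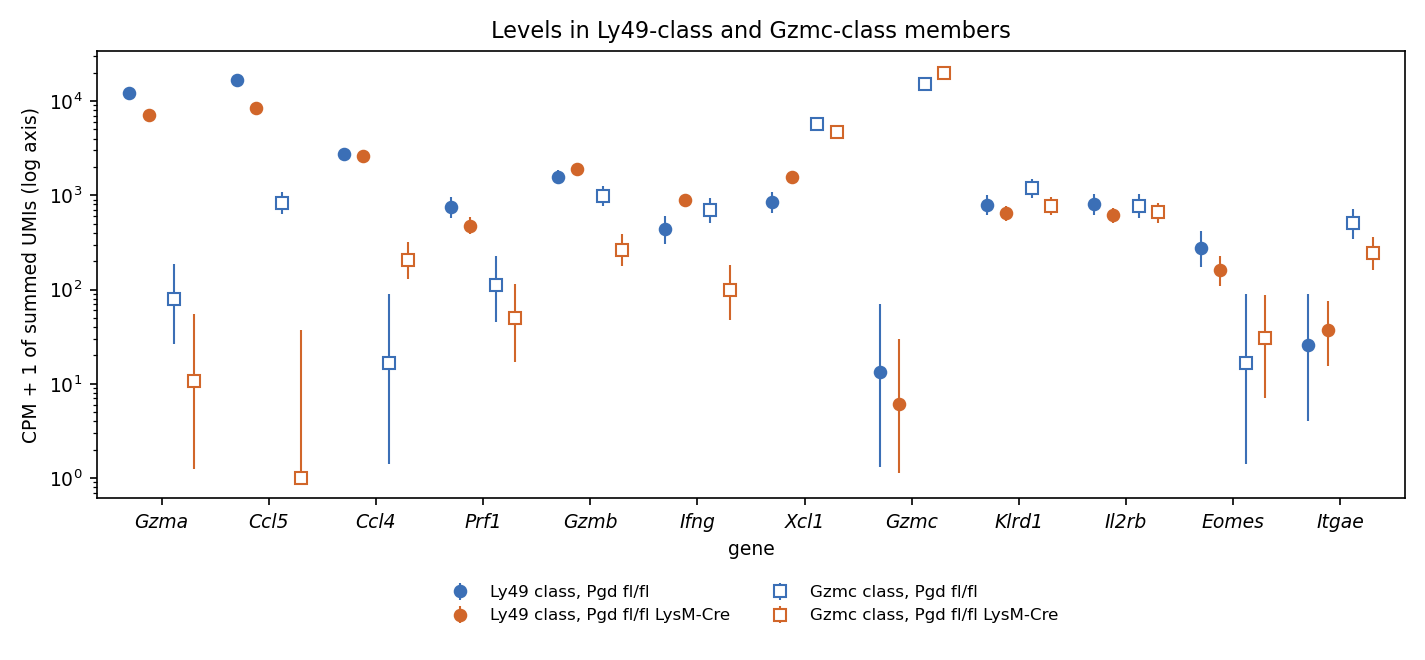
Genes of the Ly49 and Gzmc classes. Points give CPM plus 1 on a log axis for 12 genes in each class (filled circles for Ly49, open squares for Gzmc) and library (blue WT, orange KO), with exact 95% Poisson intervals that cover counting error only. Gzma (12295 and 7086 CPM) and Ccl5 (16886 and 8496 CPM) lie high in the Ly49 class, Itgae (504 and 245 CPM) and Xcl1 (5638 and 4650 CPM) in the Gzmc class.

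The members also held a few cells with MHC class II RNA. Of the Cd74 UMIs, 714 of 764 (93.5%) in WT and 1164 of 1249 (93.2%) in KO came from 4 members of each library with at least 50 UMIs of Cd74 and H2-Ab1. These members were deep, with 7865 to 22760 UMIs and 14282 to 36777 UMIs. H2-Aa, H2-Eb1, H2-Ab1, Cst3 and Cd74 were also among the 10 genes highest in the Ly49 class. Where the count of a list of NK or pathway genes past 2-fold differed without these 8 members, both counts are given below. Whether they held RNA of more than 1 cell was not tested.

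Between the genotypes, 2781 genes with at least 30 UMIs over the members were compared. Of these, 139 (5.0%) were at least 2-fold higher and 59 (2.12%) at least 2-fold lower in KO, and the median log2 ratio was 0.02. These shares are the background for every count of a gene list below. With no C1q UMI allowed in a member the counts were 68 and 37, and with members thinned to 2000 UMIs they were 18 and 21. Of the 12 genes of NK identity that the rule did not read, none was 2-fold higher or lower. Their median log2 ratio was −0.29, and 10 of the 12 had a negative ratio, against 1341 of all 2781 genes. The rule genes Ncr1 and Klrb1c were at 437 and 342 CPM and at 415 and 416 CPM. Klrk1 was at 595 and 504 CPM (log2 ratio −0.24, −0.56 to 0.08).

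Of the Ly49 receptor genes, 6 of 11 listed were measured and 1 was past 2-fold, in the lower direction. Klra7 was at 201 and 225 CPM (log2 ratio 0.16, −0.36 to 0.70), Klra4 at 313 and 262 CPM, Klra8, an activating receptor gene, at 133 and 186 CPM, and Klra9 at 193 and 137 CPM. Klra3 was at 141 and 53.8 CPM, a log2 ratio of −1.39 (−2.24 to −0.57) resting on 33 and 22 UMIs. Ly49 genes are near-identical copies packed on chromosome 6, and reads that fit several of them are dropped in counting, so values of single members are uncertain. Of 10 measured lectin receptor genes, none passed 2-fold (median −0.17), and of 13 measured adaptor and costimulatory genes none did (median −0.47), while without the members with MHC class II RNA 1 of 12 adaptor and costimulatory genes, Cd48, was lower (−1.08).

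Among the lytic genes, 1 of 12 measured was 2-fold lower and none higher, and that gene was Gzmb. It was at 2560 CPM in WT and 1237 CPM in KO, a log2 ratio of −1.05 (−1.22 to −0.88). A single WT member with 376 of 598 Gzmb UMIs (62.9%) set this value. With the highest member of each library left out, Gzmb was at 1008 and 936 CPM, a log2 ratio of −0.11 (−0.35 to 0.14). The ratio within the Ly49 class was 0.28 (−0.02 to 0.58), and within the Gzmc class, on 63 and 27 UMIs, −1.91 (−2.61 to −1.23). In the Gzmc class 1 WT cell held 45 of the 63 Gzmb UMIs, and the medians per cell were 1.5 and 0.5 UMIs. In the Ly49 class the highest cells held 50 and 126 Gzmb UMIs. Gzma was at 5017 and 4315 CPM (−0.22, −0.32 to −0.11), and its ratio was −0.07 (−0.18 to 0.05) without the members with MHC class II RNA and −0.80 (−0.91 to −0.68) within the Ly49 class. The Gzma ratios pool UMIs, so deep cells weigh most. KO cells of the Ly49 class with 31138, 12364 and 11789 UMIs held 0, 1 and 10 Gzma UMIs. Others with 14282 and 11408 UMIs held 156 and 34. The medians per cell of that class were 56 and 28 Gzma UMIs. Prf1 was at 484 and 350 CPM (−0.47, −0.83 to −0.10), and the WT member with the most Gzmb held 32 of 113 Prf1 UMIs (28.3%). With the highest member of each library left out, Prf1 was at 368 and 326 CPM (−0.18, −0.59 to 0.24).

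Gzmc was at 9178 and 6880 CPM, a log2 ratio of −0.42 (−0.50 to −0.33), and the highest cell held 33.3% and 29.2% of its UMIs. Without the members with MHC class II RNA its log2 ratio was 0.13 (0.04 to 0.22), so the direction for Gzmc turned with 8 cells. In CD8 T cells, Gzmc was higher in KO, with a log2 ratio of 1.82 (1.69 to 1.95). Granzyme genes of chromosome 14 other than Gzmb and Gzmc were close to absent, with 0 and 8 UMIs of Gzmd, 1 and 5 of Gzme and none of Gzmf or Gzmg, and Gzmk had 0 and 1 UMIs. Gzmc to Gzmg are close paralogs, so reads shared between them may not have been counted.

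Of the cytokines and chemokines, 1 of 9 measured was 2-fold higher and none lower. Ccl5 had the lowest ratio, with 9076 and 4824 CPM, a log2 ratio of −0.91 (−1.0 to −0.82). Its UMIs were spread over 30 and 40 members. The ratio was −0.83 without the highest member of each library and −0.84 without the members with MHC class II RNA. Within the Ly49 class it was −0.99 (−1.10 to −0.89). Each of these ratios pools UMIs, so deep cells weigh most. KO cells of that class with 31138, 12364 and 11789 UMIs held 4, 0 and 2 Ccl5 UMIs. Others with 14282 and 11408 UMIs held 78 and 41. Per cell, that class ran from 1 to 232 Ccl5 UMIs with a median of 69 in WT. In KO it ran from 0 to 209 with a median of 41. A ratio that weighs each cell alike is not given here. In CD8 T cells the log2 ratio of Ccl5 was −0.11.

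Ccl4 had a ratio above 0, with 1413 and 1856 CPM (0.39, 0.21 to 0.58), while Ccl3 was at 706 and 523 CPM (−0.43, −0.73 to −0.13). Xcl1 was at 3373 and 2462 CPM (−0.45, −0.59 to −0.32), and in CD8 T cells its log2 ratio was 0.99. Within the Ly49 class the ratio of Xcl1 turned to 0.88 (0.49 to 1.28), and within the Gzmc class it was −0.28 (−0.48 to −0.08). The median of the Ly49 class was 2 Xcl1 UMIs per cell in both libraries, and its highest cells held 24 and 63. Ifng was at 672 and 555 CPM (−0.28, −0.58 to 0.03). Its ratio was 1.04 (0.51 to 1.61) in the Ly49 class and −2.82 (−3.98 to −1.81) in the Gzmc class, a difference in direction that was not tested. The highest cells of the Gzmc class held 22 and 2 Ifng UMIs, with medians of 2.5 and 1.5. Those of the Ly49 class held 11 and 41, with medians of 1 and 2. Areg was the gene past 2-fold, with 57 of 62 UMIs of KO in 1 cell. Tnf had 19 and 9 UMIs (log2 ratio −1.89, −3.21 to −0.67), and 1 WT member held 52.6% of them.

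**Figure D4:**
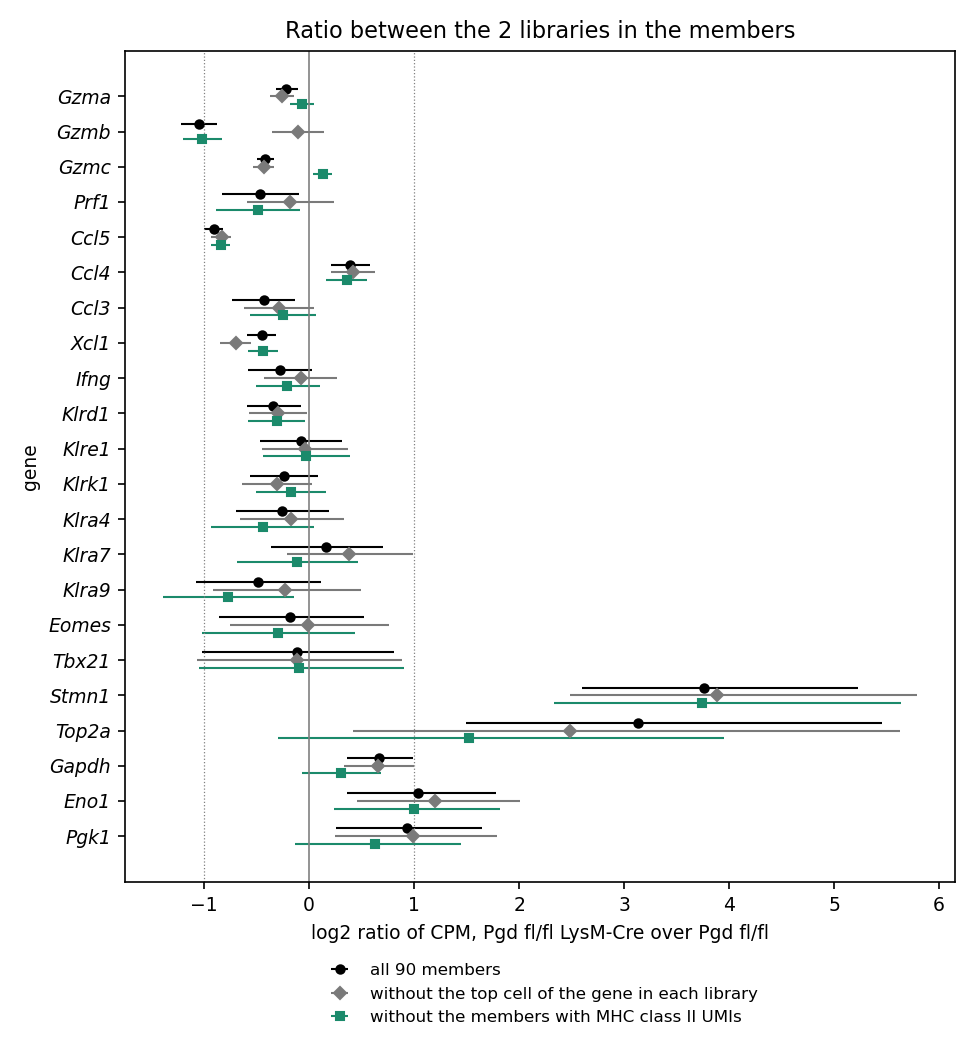
Log2 ratios between the libraries in the members, KO over WT. Points give the ratio over all 90 members, without the highest member of each library for that gene, and without the members with MHC class II RNA, with exact 95% intervals for counting error only. Gzmb moves from −1.05 to −0.11 without its highest members, whereas Ccl5 lies between −0.91 and −0.83 in these settings, which all pool UMIs.

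Receptors for cytokines and homing held no gene past 2-fold over all members. None of 10 cytokine receptor genes measured passed 2-fold (median −0.14), with Il2rb at 899 and 616 CPM (log2 ratio −0.55, −0.82 to −0.27) and Il18r1, a receptor chain for interleukin-18, at 167 and 97.8 CPM. None of 12 measured trafficking genes passed it (median −0.48). Without the members with MHC class II RNA, the receptor gene Tgfbr2 was 2-fold higher (1.05, 0.01 to 2.22) and the integrin genes Itgb2 (−1.12, −1.75 to −0.49) and Itga4 (−1.28, −1.92 to −0.65) were 2-fold lower. Below the UMI limit, the fractalkine receptor gene Cx3cr1 had 3 and 22 UMIs (2.07, 0.33 to 4.45) and the Fc receptor gene Fcgr3 (CD16) 2 and 26 UMIs (2.89, 0.89 to 6.01).

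Among transcription factors, 2 of 20 measured were 2-fold lower and none higher, against 2.12% lower and 5.0% higher of all genes. Rora was at 146 and 51.3 CPM (−1.50, −2.36 to −0.68), with 41.2% of its WT UMIs in 1 cell, and Ikzf3 at 107 and 46.5 CPM (−1.20, −2.15 to −0.29). Tox, with 14 and 8 UMIs, was at a log2 ratio of −1.62 (−3.08 to −0.26). Eomes was at 133 and 117 CPM and Irf8 at 531 and 751 CPM (0.50, 0.19 to 0.81), and Irf4 had 6 and 0 UMIs. Checkpoint genes were scarce. Tigit had 0 and 2 UMIs, Pdcd1 3 and 5, each in 1 cell, Ctla4 2 and 4, and Lag3 9 and 6. Nt5e (CD73), the 1 of 3 measured checkpoint genes past 2-fold, was at 94.2 and 46.5 CPM (−1.02, −1.99 to −0.07).

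Of the lists that set the members apart by origin, 1 of 11 measured circulating NK genes was 2-fold lower (Klra3 again, median −0.01) and none of 9 measured ILC1 genes passed it (median −0.45). The median of the ILC1 list without the members with MHC class II RNA was −0.41.

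Of the gene lists examined, that of the cell cycle had the highest median ratio. All 7 measured proliferation genes of 15 listed were 2-fold higher in KO, with a median log2 ratio of 3.13, against 5.0% of all genes. A gene was measured with at least 30 UMIs over both libraries, and the whole list held 50 UMIs in WT. These genes thus passed the limit largely through KO. Their count and median are therefore a description and no finding, also where members are left out. Summed over the list there were 50 UMIs in WT and 545 in KO (214 and 1332 CPM, log2 ratio 2.64, 2.22 to 3.09). Mki67, the proliferation antigen Ki-67, had 0 UMIs in WT and 34 in KO in 7 cells, and the PCNA-associated factor Pclaf had 0 and 45. Set against a floor of 3 counts, their log2 ratios were at least 2.69 and 3.10, and their exact intervals began at 2.32 and 2.74. Stmn1, a tubulin regulator, had 6 and 142 UMIs, a log2 ratio of 3.76 (2.60 to 5.23).

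These UMIs came from few cells. None of the 36 WT members had 10 or more UMIs of the list and 7 of the 54 KO members did, while the median was 1 UMI in both libraries. Of the 7 cells, 4 were of the Gzmc class, 2 of the Ly49 class and 1 of neither single class, holding both sets of genes, and 2 of them had MHC class II RNA. They were deep, from 12364 to 36777 UMIs, and 3 of them held 57.2% of the UMIs. Without the members with MHC class II RNA the log2 ratio of the list sum was 2.24 (1.76 to 2.76), that of Top2a alone was 1.52 (−0.30 to 3.95), and only 3 genes of the list reached 30 UMIs, all past 2-fold with a median of 1.46. With no C1q UMI allowed in a member, Top2a turned to −0.24, and on thinned members Mcm6 turned to −0.31.

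Among all genes, the 10 with the highest ratio were Fabp5 (4.61), Stmn1, Hes1 (3.33), Aif1 (2.72), Il1b (2.44), Dut (2.41), Cxcl10 (2.38), Plac8 (2.33), Tubb5 (2.32) and Bnip2 (2.26). The lipid-binding protein gene Fabp5 had 90.1% of its UMIs in 1 KO cell and Cxcl10 had 68.1%, and Aif1 and Il1b are genes of myeloid cells. Stmn1, Dut and Tubb5 are cell cycle genes. The 10 with the lowest ratio were Cxcl2 (−2.39), Igkc (−2.18), Cited2 (−1.94), Rasa2 (−1.87), Spp1 (−1.84), Bbip1 (−1.81), Cant1 (−1.69), Nfkbie (−1.63), Cdh1 (−1.62) and Cd72 (−1.62). Without the members with MHC class II RNA, Aif1 turned to −0.22, Cdh1 to 0.52 and Cd72 to 0.30, and with no C1q UMI allowed Cdh1 was at 0.34, Cd72 at 1.17 and Nfkbie at 0.02. A single WT cell held 86.1% of Cxcl2, 72.3% of Cited2 and 70.7% of Spp1. Igkc, an antibody light chain gene, was at 11448 CPM in WT B cells and 4275 CPM in those of KO, and its part in the members was not tested.

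Genes of the pathway that Pgd belongs to were measured in few members. Of 8 listed pentose phosphate genes, 3 were measured and none passed 2-fold (median 0.64), while without the members with MHC class II RNA Tkt did (1.42). Of the glycolysis genes, 2 of 9 measured were 2-fold higher and none lower, with a median of 0.62, against 5.0% higher and 2.12% lower of all genes. On thinned members 1 of the 2, Pfkp, turned to −0.82. Gapdh was at 497 and 790 CPM (0.67, 0.36 to 0.99) and Eno1 at 98.5 and 203 CPM (1.04, 0.36 to 1.78). Without the members with MHC class II RNA, none of the 9 passed 2-fold, the median was 0.41, and Gapdh was at 0.30 (−0.07 to 0.68). Oxidative phosphorylation genes (15 measured, median 0.10), MHC class I genes (10 measured, median −0.03) and immediate early genes (13 measured, median −0.10) held no gene past 2-fold, with 1 exception among the immediate early genes without the members with MHC class II RNA.

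Markers of other cells were also present in the members and differed between libraries. The B cell list was at 454 and 266 CPM in the members, from 0 to 4959 CPM per cell in WT and from 0 to 1033 CPM in KO, and Cd79a had 13 and 0 UMIs. The macrophage list was at 372 and 533 CPM, per cell from 0 to 2528 and from 0 to 9304 CPM, with Adgre1 at 0 and 1 UMIs and Ms4a7 at 0, against 37928 and 30173 CPM in macrophages. The epithelial list was at 313 and 66.0 CPM, with Epcam at 37 and 7 UMIs and Krt8, Krt14 and Krt5 at 0. The dendritic list was at 5347 and 5300 CPM, nearly all from the members with MHC class II RNA. The part of these cells in the ratios of single genes was not tested.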

How the data were processed

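Single-cell RNA was measured in 1 library per genotype. The authors deposited UMI counts per gene and barcode, unnormalized, from Cell Ranger 6.1.2 on mm10 per the labels, with counts of 12 multiplexing oligonucleotides, and used Seurat for their own analysis. The kept cells exceed those the study states. No doublet caller was run; oligonucleotide and other-lineage counts are given instead.

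UMIs were summed over members and scaled to CPM with Python 3.11.15, NumPy 2.4.6, SciPy 1.17.1, pandas 2.3.3 and Matplotlib 3.10.9. Scaling factors of edgeR 4.0.16 and DESeq2 1.42.0 (R 4.3.3) were alternatives. Comparison cells were CD8 T cells (at least 2 Cd3 and 2 Cd8 UMIs, at most 1 NK UMI), B cells (at least 3 B cell UMIs) and macrophages (at least 10 C1q UMIs). Genes with at least 30 UMIs over the members were compared. Named genes were the listed genes, the 10 highest and 10 lowest ratios among those in at least 10 members with an interval off 0, the 15 leading genes against other cells and against CD8 T cells (at least 100 UMIs), and the 10 leading genes of each class. The members and the lists were chosen with earlier results of these data known. Scripts were tested on simulated counts. Of 351 listed genes, 349 matched RefSeq. Protein sequences were not used here.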

Additional observations from a re-analysis of the deposited data

Results flagged for a closer look

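The counts of multiplexing oligonucleotides, which no comparison used, held a signal of the other library. No label pairs an oligonucleotide with a library, so the one with the most counts over the kept cells of a library was taken as its tag. Over the members, the tag of the other library had 5244 counts in WT (16.5% of the counts of both tags) and 6187 in KO (9.06%). The library's own tag was the highest in all 36 and all 54 members, and its lowest share in a member was 68.9% and 79.5%.

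Spp1, the osteopontin gene, had opposite ratios in the members and in CD8 T cells. Its log2 ratio was −1.84 in the members, where 1 WT cell held 29 of 41 UMIs, and 1.19 (0.83 to 1.55) in CD8 T cells. The difference was not tested.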

How the results depend on the processing

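The removal of members with MHC class II RNA, of the highest member of each gene and of all but the Ly49 class was chosen after seeing the data, and the other alternatives earlier. Over 151 named genes and 12 settings, 1600 of 1802 log2 ratios stayed within the counting interval, 180 left it without turning a 2-fold difference and 22 turned one. With no C1q UMI allowed, members were 0.870% and 1.25% of kept cells, and on cells thinned to 2000 UMIs 0.758% and 1.21%. The Ly49 class was 74.3% of KO members with no C1q UMI. Genes 2-fold higher and lower numbered 68 and 37 with no C1q UMI, 18 and 21 thinned, 706 and 404 with at least 10 UMIs, 14 and 3 with at least 100, and 3076 and 1759 with at least 1. Without the deepest 5% of members 37 were lower, and without the members with MHC class II RNA 82 were higher. With TMM the counts were 148 and 56, with DESeq2 factors 138 and 60. Directions turned with no C1q UMI for Areg (−3.56), Top2a (−0.24), Irf7 (−0.37), Rsad2 (−0.24), Nfkbie (0.02), Cdh1 (0.34) and Cd72 (1.17). They turned without the deepest 5% for Cdh1 (0.45) and Cd72 (0.43), without the members with MHC class II RNA for Aif1 (−0.22), Cdh1 (0.52) and Cd72 (0.30), and with the mean over cells for Gzmb (0.27). They turned on thinned cells for Gzmb (0.21), Mcm6 (−0.31), Pfkp (−0.82) and Cdh1 (0.50), without the highest member for Areg (−0.81) and Cxcl2 (0.00), and within the Ly49 class for Gzmb (0.28), Fabp5 (−0.10) and Cant1 (1.73). The causes were not tested. No paired analysis was possible because each genotype had 1 library, and no replicate could be left out. Depth limits all genes with few UMIs.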

Other observations

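One member of KO carried cytokine RNA of another innate lymphocyte type. This cell of the Gzmc class, with 11129 UMIs, held all 25 UMIs of Il13 and 57 of 62 UMIs of Areg, genes known from ILC2s. The other ILC2 genes Il5 and Il1rl1 had 2 and 4 UMIs in the members of that library, each in 1 cell. Of the heat shock genes, 8 of 8 had a positive ratio, against 1440 of all 2781 genes, with a median log2 ratio of 0.44 and none past 2-fold. Of 7 measured interferon-stimulated genes, 3 were 2-fold higher in KO (median 0.66), against 5.0% of all genes. Without the members with MHC class II RNA 2 were, and with no C1q UMI allowed in a member Irf7 turned to −0.37 and Rsad2 to −0.24. The 3 genes were Rsad2 (3.17), Isg15 (1.51) and Irf7 (1.03). Without the highest member of each library for the gene, Rsad2 was at 1.00 (−1.39 to 4.31) and Isg15 at 0.62 (−0.80 to 2.27). Irf7 was then at 1.22 (0.08 to 2.54). In KO, 1 cell of the Ly49 class held 56 of 63 Rsad2 UMIs and 62 of 91 Cxcl10 UMIs. WT members held 4 Rsad2 UMIs, so Rsad2 reached the limit of 30 UMIs through KO and its place in the count is no finding. H2-M2 had 63 UMIs in 2 WT members and 0 in KO.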
